A study of Drosophila melanogaster with 6 samples.

Results

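The cuticular protein genes described here are 122 of the 17649 genes in the deposited table of the Drosophila melanogaster pupal eye. They were taken by symbol, by a rule that itself uses no measured value: symbols that begin with Cpr and a digit (68 genes), Twdl (26), Lcp (17) or Ccp84 (7), together with Edg78E, Edg84A, Pcp and Acp65Aa. The choice of these genes was made with earlier results of these data known. Cpr66D and Cpr72Ec, which encode proteins of the corneal lens, were left out of the members. Of the 122 genes, 119 are annotated as protein-coding in Ensembl release 115 and 3 as pseudogenes, which are TwdlU, Lcp1Psi and Lcp65APsi.

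RNA was sequenced from eyes dissected from pupae of the wild-type strain Canton S at 40 h and at 21 h APF (after puparium formation), with 3 biological replicates at each stage, each a pool of eyes. The authors deposited 1 FPKM value (a count of sequenced fragments scaled by transcript length and by library depth) per gene and stage, pooled over the replicates, so that no SD, n or test across replicates is given here, and every FPKM given here is the authors' value. A gene was called higher or lower at 40 h APF when it reached at least 1 FPKM at one of the stages and its ratio was at least 2-fold on log2(FPKM + 0.1). Folds in the text are plain ratios of FPKM and carry no error. The FPKM scale is per length, so levels of different genes are set side by side here. Such comparisons are approximate, since the authors' aligner does not split reads over introns and some genes share exon bases with others. Whole eyes were sampled, so that fewer cells of a type and less RNA per cell cannot be told apart.

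Insect cuticle is an extracellular matrix of chitin fibers and proteins that epithelial cells secrete at their apical surface. Most structural cuticle proteins of insects belong to the CPR family, which carries the Rebers and Riddiford consensus, a chitin-binding stretch. The Tweedle family lacks this consensus and takes its name from the squat body shape caused by a mutation of TwdlD. A fly makes a new cuticle at each molt, with the pupal cuticle laid down early in metamorphosis and the adult cuticle deposited under it after it has separated from the cells. Larval (Lcp), pupal (Pcp) and adult (Acp) cuticle protein genes are named for the cuticle from which they were first described, and Edg78E and Edg84A for their dependence on ecdysone in imaginal discs.

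Most of these genes were near or at 0 in the pupal eye. 22 members, or 18%, were listed at 0 FPKM at both stages, close to the 17.7% of all genes in the table. Another 64 members stayed above 0 but under 1 FPKM, as did 4692 of the 17649 genes of the table. The other 36 members, or 29.5%, reached 1 FPKM at one stage or the other, against 55.7% of all genes in the table. Among protein-coding genes alone, 35 of 119 members (29.4%) and 8995 of 13748 genes of the table (65.4%) reached this level. Only 13 members reached 10 FPKM, with 9 of them at this level at 40 h and 8 at 21 h APF.

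Among the 36 members that reached 1 FPKM, 8 were called higher at 40 h APF (22.2%, against 14.8% of the 9828 genes of the table at this level) and 18 were called lower (50.0%, against 10.7%). The other 10 members were under 2-fold on this scale, although the plain FPKM ratio of Lcp65Ag2 was 2.07-fold lower. The median log2 ratio of 40 h over 21 h was -1.03 for the members and -0.02 for all genes. The 8 higher members had a median of 42.1 FPKM at their higher stage, with 6 of them at 10 FPKM or more and 2 under 5 FPKM. The 18 lower members had a median of 2.99 FPKM at their higher stage, with 6 of them also at 10 FPKM or more, Cpr72Ea included, and 11 under 5 FPKM. With a minimum of 5 FPKM, 16 members were counted, of which 6 were higher (37.5%, against 13.0% of all genes) and 7 were lower (43.8%, against 7.81%), and their median log2 ratio turned positive, to 0.15. Without members at a locus shared with another gene, 5 of 30 were higher (16.7%, against 14.7% of all genes left by the same step), since TwdlE, Cpr73D and Cpr56F lie at such loci.

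**Figure D1:**
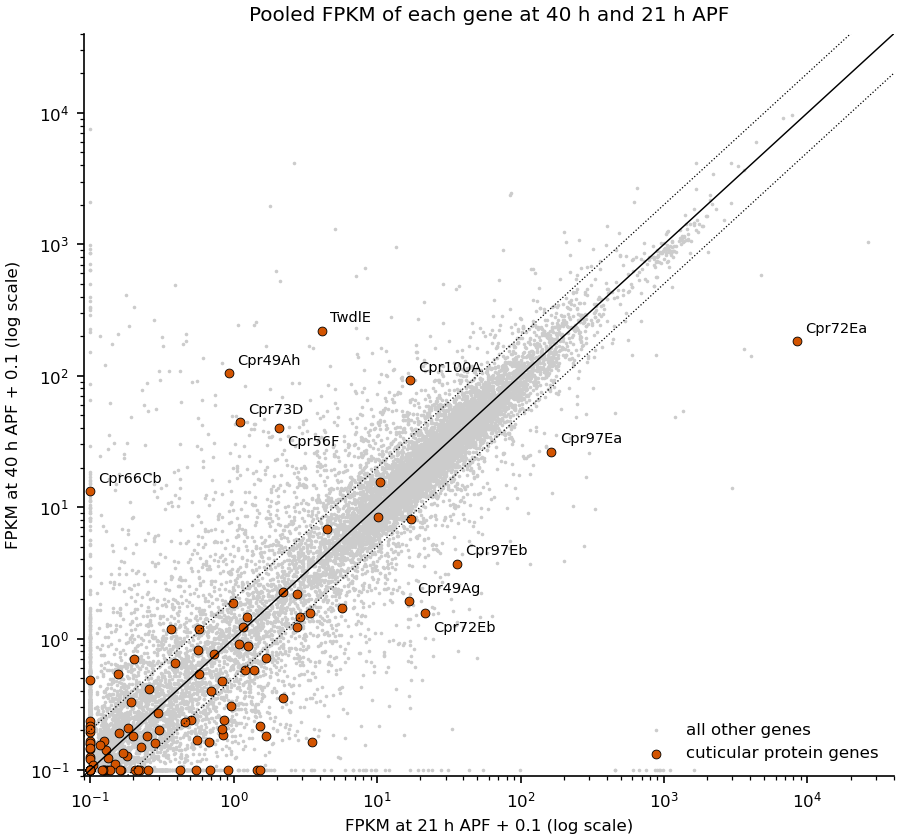
Pooled FPKM of every gene at 40 h APF (y axis) against 21 h APF (x axis), both as FPKM + 0.1 on a log scale. Orange points are the 122 members, gray points all other genes, the solid line marks equal values and the dotted lines 2-fold differences. Cpr72Ea (183 FPKM in 40 h eyes, against 8474 FPKM in 21 h eyes) lies far below the line, whereas TwdlE (219.8 FPKM at 40 h, against 4.02 FPKM at 21 h) and Cpr49Ah (104.6 FPKM at 40 h, against 0.826 FPKM at 21 h) lie far above it.

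Cpr72Ea (FBgn0036617, on 3L at bases 16362603 to 16363750 of BDGP6, with 1148 exon bases in 1 exon) had 183 FPKM in 40 h eyes, against 8474 FPKM in 21 h eyes, 46.3-fold lower at 40 h. At 21 h it was the gene with rank 2 in the whole table by FPKM, and at 40 h it had rank 466. It alone made up 96.0% of the summed FPKM of the members at 21 h, and 23.0% at 40 h. The log2 ratio with the pseudocount was -5.53, the most negative among the members that reached 1 FPKM. None of its exon bases is shared with another annotated gene.

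The summed FPKM of all members was 795.8 at 40 h and 8832 at 21 h APF, which is 0.142% of the table's sum at 40 h and 1.58% at 21 h. This direction rests on Cpr72Ea. Without it, the other 121 members summed to 612.8 FPKM in 40 h eyes, against 357.4 FPKM in 21 h eyes, 1.71-fold higher at 40 h. The 26 Tweedle genes, most of whose sum came from TwdlE, summed to 231.6 FPKM in 40 h eyes, against 16.3 FPKM in 21 h eyes, and the other 96 members to 564.2 FPKM in 40 h eyes, against 8815 FPKM in 21 h eyes.

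**Figure D2:**
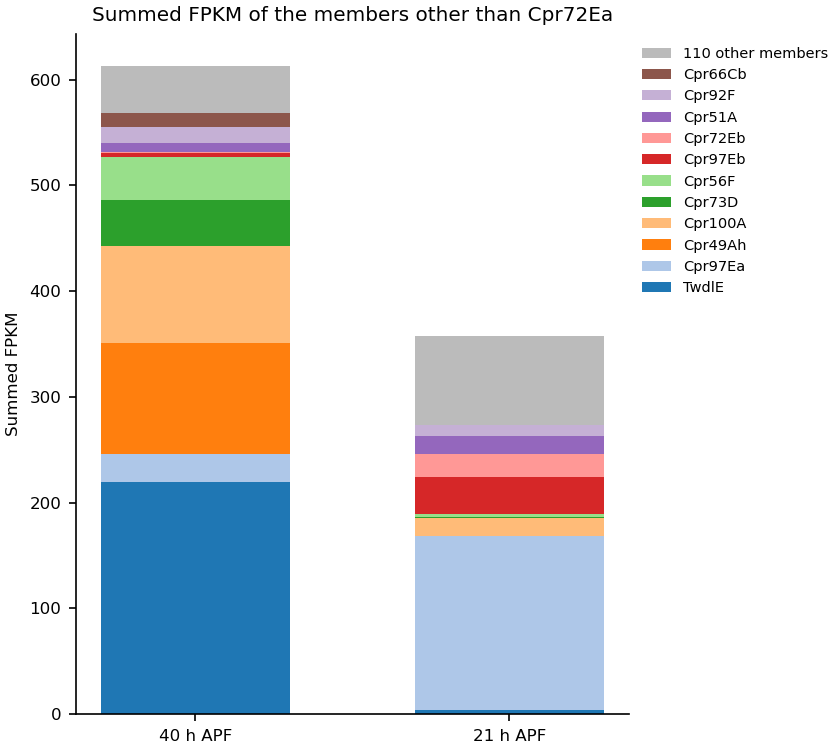
Summed FPKM (y axis, from 0) of the members other than Cpr72Ea at 40 h (left bar) and 21 h APF (right bar), stacked by gene, with 11 genes colored and the other 110 in gray. The left bar reaches 612.8 FPKM and is led by TwdlE, Cpr49Ah and Cpr100A, and the right bar reaches 357.4 FPKM and is led by Cpr97Ea.

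The genes that led the family differed in part between the stages. At 40 h APF, TwdlE, Cpr72Ea, Cpr49Ah and Cpr100A had the highest levels and together made up 75.3% of the summed FPKM, whereas at 21 h Cpr72Ea was followed by Cpr97Ea, Cpr97Eb and Cpr72Eb. Of the 10 members with the highest FPKM at each stage, 5 were the same at both, which is 50.0% of either list. 4 members were at 10 FPKM or more at both stages (Cpr72Ea, Cpr97Ea, Cpr100A and Cpr92F). Another 5 were at this level only at 40 h (TwdlE, Cpr49Ah, Cpr73D, Cpr56F and Cpr66Cb) and 4 only at 21 h (Cpr97Eb, Cpr72Eb, Cpr51A and Cpr49Ag). Of all genes in the table, 6867 reached 10 FPKM at a stage, 6309 of them at 40 h and 6170 at 21 h. At a limit of 1 FPKM, 21 of 36 members reached it at both stages, against 8627 of 9828 genes of the table. No such share was computed for the top 10.

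TwdlE (FBgn0031957, on 2L at bases 7857957 to 7860839) encodes a Tweedle protein and was the member with the highest level at 40 h APF, with 219.8 FPKM in 40 h eyes, against 4.02 FPKM in 21 h eyes, 54.7-fold higher. Its exons overlap those of lectin-28C on the opposite strand over 71.9% of their bases. lectin-28C itself had 5.22 FPKM in 40 h eyes, against 4.52 FPKM in 21 h eyes, a log2 ratio of 0.20. The sources used here do not give whether reads were assigned by strand, so that reads in the shared bases cannot be told apart.

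Cpr49Ah (FBgn0033731, on 2R at bases 12413962 to 12415170) had 104.6 FPKM in 40 h eyes, against 0.826 FPKM in 21 h eyes, 127-fold higher. This was the largest fold among the members above 0 at both stages that reached 1 FPKM. Cpr66Cb (FBgn0035875, on 3L at bases 8336672 to 8338595) had 13.1 FPKM at 40 h and was listed at 0 at 21 h APF, so that no fold is given. It was the only member listed at 0 at one stage that reached 5 FPKM at the other.

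Cpr73D (FBgn0036680, on 3L at bases 16939100 to 16957689) had 44.1 FPKM in 40 h eyes, against 1.00 FPKM in 21 h eyes, 44.0-fold higher. It shares 9.70% of its exon bases with the gene that the table calls Nc73EF (Ogdh in release 115), on the opposite strand, which had 49.3 FPKM in 40 h eyes, against 29.8 FPKM in 21 h eyes. Cpr56F (FBgn0034499, on 2R at bases 20288371 to 20291945) had 40.1 FPKM in 40 h eyes, against 1.98 FPKM in 21 h eyes, 20.3-fold higher.

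Cpr100A (FBgn0039805, on 3R at bases 30867521 to 30869184) differed from these genes in that it was already above 10 FPKM at the earlier stage, with 91.9 FPKM in 40 h eyes, against 16.9 FPKM in 21 h eyes, 5.43-fold higher. The remaining members called higher, Edg84A and Cpr78Cc, were both near 1 FPKM. Edg84A had 1.09 FPKM in 40 h eyes, against 0.268 FPKM in 21 h eyes, and Cpr78Cc had 1.07 FPKM in 40 h eyes, against 0.473 FPKM in 21 h eyes. With a pseudocount of 1 FPKM, neither was called.

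Among the lower genes, Cpr97Ea (FBgn0039480, on 3R at bases 27083130 to 27087778) was the most abundant after Cpr72Ea, with 26.3 FPKM in 40 h eyes, against 164 FPKM in 21 h eyes, 6.25-fold lower. Cpr97Eb (FBgn0039481, on 3R at bases 27089704 to 27091130) had 3.61 FPKM in 40 h eyes, against 35.7 FPKM in 21 h eyes, 9.89-fold lower. Cpr72Eb (FBgn0036618, on 3L at bases 16364899 to 16365707) had 1.46 FPKM in 40 h eyes, against 21.4 FPKM in 21 h eyes, 14.7-fold lower. These genes stand in pairs of neighbors, Cpr97Ea beside Cpr97Eb and Cpr72Ea beside Cpr72Eb.

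Cpr49Ag (FBgn0033730, on 2R at bases 12407793 to 12408523) had 1.82 FPKM in 40 h eyes, against 16.6 FPKM in 21 h eyes, 9.11-fold lower. Ccp84Ad (FBgn0004780, on 3R at bases 6692732 to 6693527) had 1.61 FPKM in 40 h eyes, against 5.55 FPKM in 21 h eyes, 3.44-fold lower. Cpr51A (FBgn0033942, on 2R at bases 14512559 to 14515211) had 8.03 FPKM in 40 h eyes, against 17.1 FPKM in 21 h eyes, 2.13-fold lower, close to the 2-fold limit.

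Some of the more abundant members differed by less than 2-fold. Cpr92F (FBgn0038819, on 3R at bases 20669571 to 20672821) had 15.3 FPKM in 40 h eyes, against 10.4 FPKM in 21 h eyes. Cpr57A (FBgn0034517, on 2R at bases 20548368 to 20550117) had 8.37 FPKM in 40 h eyes, against 9.998 FPKM in 21 h eyes, and TwdlU (FBgn0037223, on 3R at bases 4243606 to 4245511), annotated as a pseudogene, had 6.72 FPKM in 40 h eyes, against 4.34 FPKM in 21 h eyes. None of the 3 was called, and their error is not known.

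The other 20 members that reached 1 FPKM stayed under 5 FPKM, and 2 of them were called higher (10%, against 22.6% of the 1784 genes of the table at this level), 11 lower (55.0%, against 23.8%) and 7 neither. Cpr31A was the most abundant of them, with 0.0629 FPKM in 40 h eyes, against 3.39 FPKM in 21 h eyes. Cpr12A and Ccp84Aa were listed at 0 at 40 h and had 1.42 and 1.35 FPKM at 21 h. Cpr62Bc had 0.117 FPKM in 40 h eyes, against 1.42 FPKM in 21 h eyes, and Twdlbeta had 0.251 FPKM in 40 h eyes, against 2.10 FPKM in 21 h eyes. The remaining lower members of this level were Cpr49Ae, Cpr78E, Cpr67B, Cpr47Ee, TwdlW and Cpr65Ec. Lcp65Ag2, Pcp, TwdlF, Cpr60D, Cpr62Bb, TwdlT and Edg78E were not called, and the log2 ratio of Cpr60D was 0.92. The genes named in this paragraph were chosen after their values were seen.

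**Figure D3:**
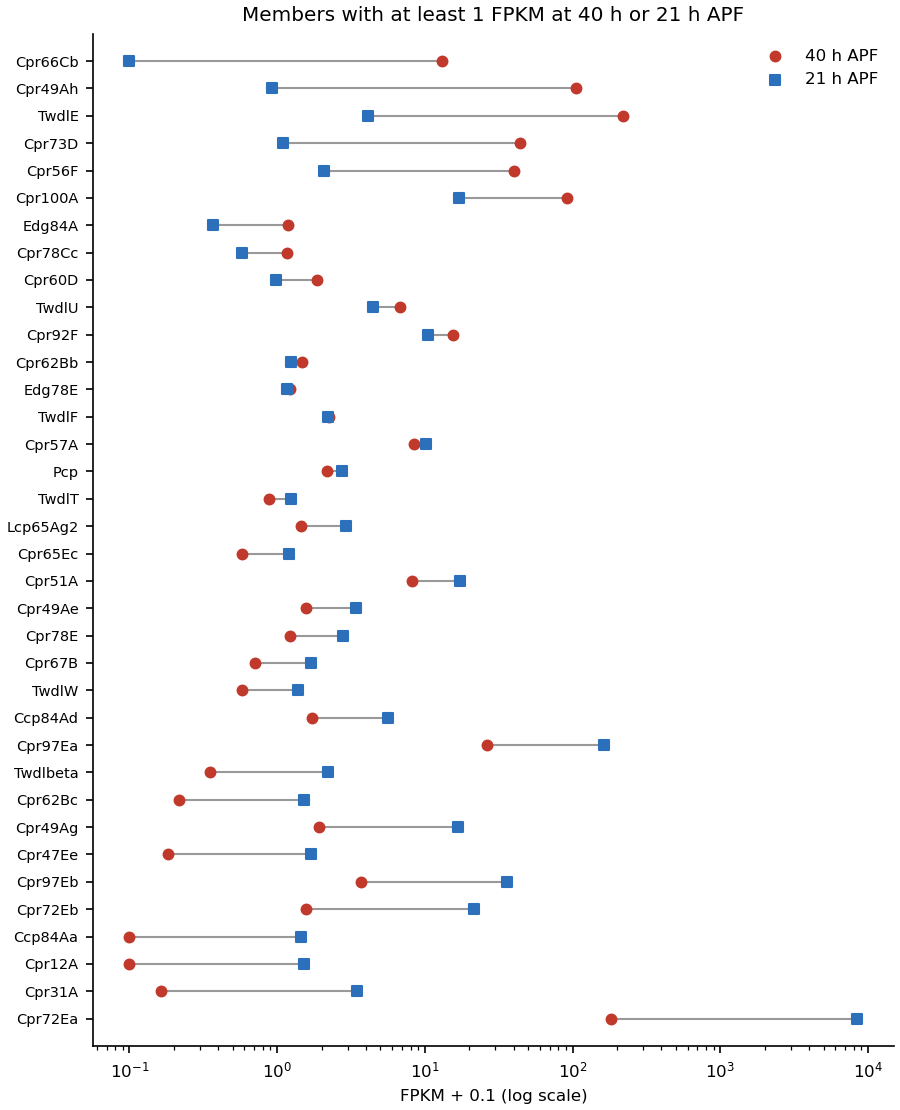
FPKM + 0.1 (x axis, log scale) of the 36 members that reached 1 FPKM, ordered from the most positive log2 ratio of 40 h over 21 h at the top to the most negative at the bottom. Red circles are 40 h and blue squares 21 h APF, joined by a line. The 6 higher members at 10 FPKM or more form the top rows, and Cpr72Ea forms the bottom row.

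No gene named for a larval, pupal or adult cuticle exceeded 2.80 FPKM at either stage. None of Lcp1, Lcp2, Lcp3, Lcp4, Lcp9 and the pseudogene Lcp1Psi reached 1 FPKM, and the highest of these values was 0.745 FPKM, for Lcp1Psi at 21 h APF. The adult cuticle gene Acp65Aa had 0.0948 FPKM at 40 h and was listed at 0 at 21 h. The pupal cuticle gene Pcp, which lies within Gart on the opposite strand, had 2.09 FPKM in 40 h eyes, against 2.65 FPKM in 21 h eyes, and the surrounding gene had 51.7 FPKM in 40 h eyes, against 69.8 FPKM in 21 h eyes. Edg78E had 1.12 FPKM in 40 h eyes, against 1.07 FPKM in 21 h eyes.

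Members that lie away from other members and members that lie in arrays were counted apart. With neighbors joined where at most 10 kb separated them, 94 members fell into 18 arrays of 2 or more and 28 stood alone. 17 of the 28 single members (60.7%) reached 1 FPKM, against 19 of the 94 members in arrays (20.2%). All 28 single members are protein-coding. Of the table, 65.4% of protein-coding genes and 55.7% of all genes reached this level. 8 of the 18 arrays held no member at this level. Neighboring genes are not independent, and no test was made of these shares.

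The 2 arrays with the most members had 1 gene at 1 FPKM between them. The array at 65A on chromosome 3L, from 6130386 to 6161589, holds 19 members that carry the names Lcp65A, Cpr65A and Acp65A, and only Lcp65Ag2 reached 1 FPKM, with 1.36 FPKM in 40 h eyes, against 2.80 FPKM in 21 h eyes. The Tweedle array on chromosome 3R, from 26619118 to 26641054, holds 12 genes from TwdlM to TwdlD. 10 of them were listed at 0 at both stages, and the highest value in the array was 0.103 FPKM, for TwdlD at 40 h. Among all 26 Tweedle genes, 6 reached 1 FPKM, of which TwdlE was higher at 40 h, Twdlbeta and TwdlW were lower, and TwdlU, TwdlF and TwdlT were not called.

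The array at 84A, from 6684445 to 6704903 on chromosome 3R, holds Edg84A and the 7 Ccp84 genes. Edg84A was higher at 40 h APF while Ccp84Ad and Ccp84Aa were lower, and the other 5 genes stayed under 1 FPKM. The array of 7 Cpr47E genes on chromosome 2R had a single member at 1 FPKM, Cpr47Ee, with 0.0825 FPKM in 40 h eyes, against 1.59 FPKM in 21 h eyes. The arrays at 64A and 76B, with 4 members each, had none.

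Neighboring genes also differed in direction. In the array of Cpr49Ae, Cpr49Af, Cpr49Ag and Cpr49Ah on chromosome 2R, which spans 12955 bases, Cpr49Ae and Cpr49Ag were lower at 40 h APF, Cpr49Af stayed under 0.1 FPKM, and Cpr49Ah, 5438 bases beyond Cpr49Ag, was higher. In the order of this array, the log2 ratios of Cpr49Ae, Cpr49Af, Cpr49Ag and Cpr49Ah were -1.11, 0.42, -3.12 and 6.82. At 72E, Cpr72Ea and Cpr72Eb lie 1148 bases apart on the same strand and were both lower at 40 h. The lens gene Cpr72Ec lies 186 bases beyond Cpr72Eb on the opposite strand and had 11.5 FPKM in 40 h eyes, against 0.614 FPKM in 21 h eyes, 18.8-fold higher. At 97E, Cpr97Ea and Cpr97Eb lie 1925 bases apart and were both lower. Of the 4 arrays with 2 or more members called, 2 held members of both directions. The array at 84A did so only through Edg84A, which was near 1 FPKM and was not called with a pseudocount of 1 FPKM.

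**Figure D4:**
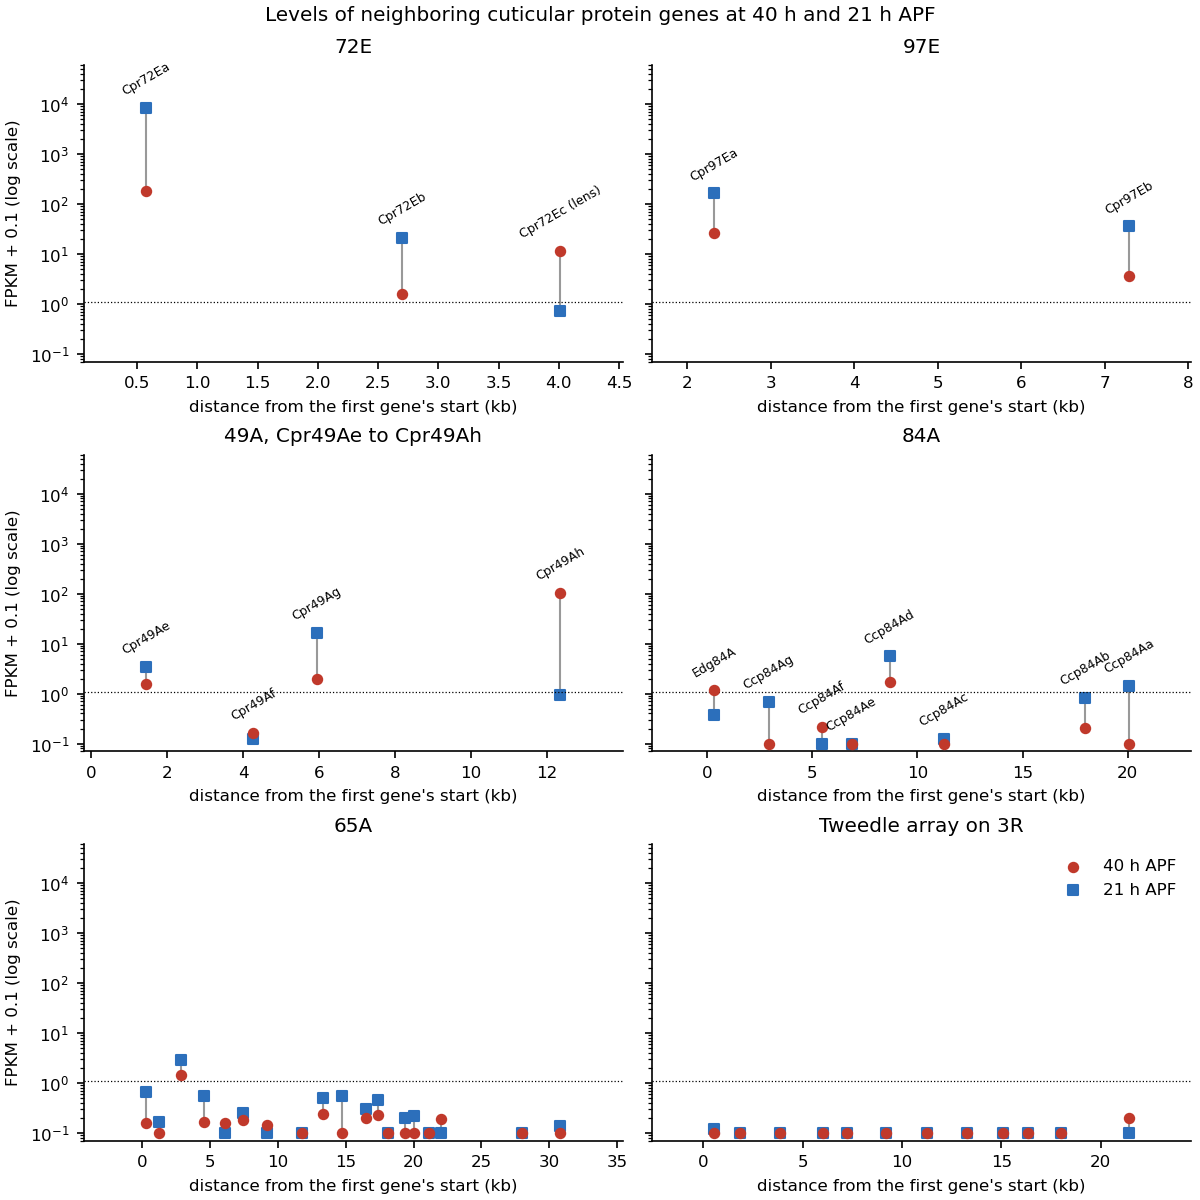
FPKM + 0.1 (y axis, log scale) of neighboring members in 6 arrays against the distance of each gene's middle from the start of the first gene (x axis, kb). Red circles are 40 h and blue squares 21 h APF, and the dotted line marks 1 FPKM. Cpr72Ea and Cpr72Eb were lower at 40 h while the lens gene Cpr72Ec beside them was higher, and the 65A and Tweedle arrays lie almost wholly below 1 FPKM.

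Exon length and number were compared as a description. The 35 protein-coding members that reached 1 FPKM had a median of 1001 exon bases (463 to 3030), against 817.5 bases (389 to 4525) for the 84 under 1 FPKM. 3 of the 35 and 13 of the 84 have a single exon, and 22 and 54 of them have 2 exons. The aligner that the authors named does not split a read over an intron, and its part in these levels was not tested. Cpr72Ea and Cpr72Eb, which were among the most abundant at 21 h, each have 1 exon.

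Numbered copies, whose reads an aligner may share out between them, were all low. The highest value at either stage was 0.202 FPKM for Lcp65Ab1 and Lcp65Ab2, 0.359 FPKM for Cpr65Ax1 and Cpr65Ax2, and 0.152 FPKM for Cpr67Fa1 and Cpr67Fa2. The 3 genes Lcp65Ag1, Lcp65Ag2 and Lcp65Ag3 together had 1.49 FPKM in 40 h eyes, against 3.83 FPKM in 21 h eyes. The values of single copies are uncertain.

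Other genes of cuticle formation were counted by the same rule, by which 14.8% of all genes were higher and 10.7% lower. These lists are short. Of 13 further structural proteins found in the table, among them the chitin-binding proteins of the obstructor family, 6 reached 1 FPKM, with 2 higher, 1 lower and a median log2 ratio of 0.26. One of the higher genes was resilin, an elastic cuticle protein, with 50.4 FPKM in 40 h eyes, against 15.1 FPKM in 21 h eyes. The lower gene was Edg91, with 1.00 FPKM in 40 h eyes, against 9.51 FPKM in 21 h eyes. Of 19 genes that make or modify chitin, 18 reached 1 FPKM, with 3 higher, 4 lower and a median of -0.07. The chitin synthase gene kkv had 59.4 FPKM in 40 h eyes, against 47.4 FPKM in 21 h eyes. The chitinase gene Cht5 was the highest of this list at both stages, with 3425 FPKM in 40 h eyes, against 2181 FPKM in 21 h eyes. Neither kkv nor Cht5 was called. The 3 higher genes were exp, Cht7 and Cda4, and the 4 lower genes were Cht10, Cht2, verm and reb. Of the lower genes, Cht2 had 108 FPKM in 40 h eyes, against 258 FPKM in 21 h eyes. Cht10 had 21.0 FPKM in 40 h eyes, against 87.1 FPKM in 21 h eyes.

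Of 8 genes of cuticle tanning in the table, 6 reached 1 FPKM, with 4 higher and 1 lower and a median log2 ratio of 2.04. Both Pu, which encodes the first enzyme of pteridine synthesis, with 72.8 FPKM in 40 h eyes, against 9.96 FPKM in 21 h eyes, and t (tan), with 93.3 FPKM in 40 h eyes, against 25.3 FPKM in 21 h eyes, were higher. The other higher genes were close to the minimum. The tyrosine hydroxylase gene ple had 1.38 FPKM in 40 h eyes, against 0.221 FPKM in 21 h eyes, and the ebony gene e had 1.26 FPKM in 40 h eyes, against 0.0960 FPKM in 21 h eyes. The lower gene was Ddc, the dopa decarboxylase gene, with 0.191 FPKM in 40 h eyes, against 1.31 FPKM in 21 h eyes. Of the rest, yellow-f had 1.51 FPKM in 40 h eyes, against 2.10 FPKM in 21 h eyes and was not called, and b and y stayed under 1 FPKM. The median thus rests mostly on genes near the minimum, and whether Pu and t acted in cuticle here was not tested. Of 14 nuclear receptors and other regulators known to act on cuticle genes, 13 reached 1 FPKM, with 5 higher, 3 lower and a median of 0.15. The largest increases were those of the nuclear receptor genes Hr3, with 174 FPKM in 40 h eyes, against 0.341 FPKM in 21 h eyes, and Hr4, with 167 FPKM in 40 h eyes, against 1.59 FPKM in 21 h eyes. The pupal-stage regulator br, the Broad gene, had 2.98 FPKM in 40 h eyes, against 29.7 FPKM in 21 h eyes. Blimp-1, a repressor whose targets include ftz-f1, had 75.8 FPKM in 40 h eyes, against 38.6 FPKM in 21 h eyes and was not called. The gene ftz-f1 had 1.14 FPKM in 40 h eyes, against 6.21 FPKM in 21 h eyes. The 3 lower genes were br, ftz-f1 and Eip93F, the last with 80.2 FPKM in 40 h eyes, against 216 FPKM in 21 h eyes. The paper instead lists Eip93F among ecdysone response genes that increased. All 4 corneal lens genes, Cpr72Ec among them, reached 1 FPKM, with 3 higher, 1 lower and a median log2 ratio of 2.57.

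**Figure D5:**
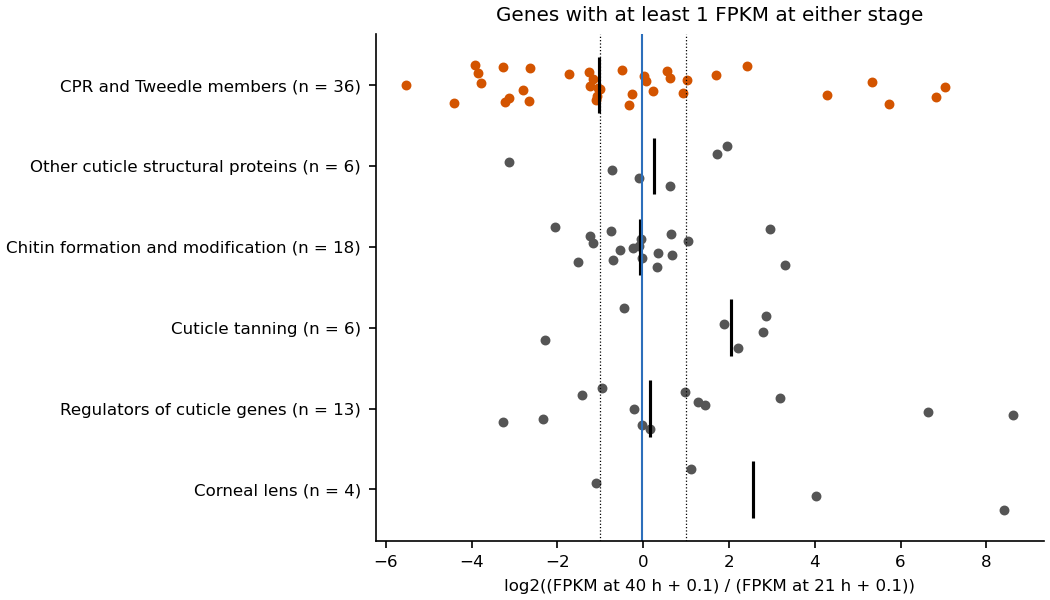
Log2 ratio of 40 h over 21 h APF, on FPKM + 0.1 (x axis), for genes that reached 1 FPKM, 1 point per gene and 1 row per list. Black bars are the list medians, the blue line is the median of all genes (-0.02) and the dotted lines mark 2-fold. The members range from -5.53 to 7.04 with a median of -1.03. The 6 tanning genes have a median of 2.04, and of them only Pu and t exceeded 2.10 FPKM.

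Of 11 retina marker genes in the table, 10 reached 1 FPKM, a level that 65.4% of protein-coding genes of the table reached. The count does not measure how pure the tissue was, and sv is also among the bristle cell markers below. The retina markers summed to 688 FPKM in 40 h eyes, against 1105 FPKM in 21 h eyes. Of the 10 at this level, 1 was called lower and 9 were not called, with a median log2 ratio of -0.55. The lower gene was chp, with 164 FPKM in 40 h eyes, against 370 FPKM in 21 h eyes. The rhodopsin gene ninaE was listed at 0 at 40 h and at 0.0694 FPKM at 21 h. The 4 tracheal markers summed to 154 FPKM in 40 h eyes, against 90.3 FPKM in 21 h eyes. Of them, 2 reached 1 FPKM and neither was called. Gasp had 73.9 FPKM in 40 h eyes, against 48.2 FPKM in 21 h eyes. The gene uif had 80.2 FPKM in 40 h eyes, against 41.2 FPKM in 21 h eyes. Gasp is also among the further structural proteins above. The tracheal regulators trh and btl were under 1 FPKM at both stages. The 7 markers of antenna and other head epidermis, of which 5 reached 1 FPKM, summed to 45.0 FPKM in 40 h eyes, against 136 FPKM in 21 h eyes, and dan, danr and ss were called lower. Of the others, Dll had 6.23 FPKM in 40 h eyes, against 5.65 FPKM in 21 h eyes. The gene hth had 17.0 FPKM in 40 h eyes, against 33.5 FPKM in 21 h eyes and was not called, and Orco and Antp were under 1 FPKM at both stages. The paper cites hth as needed to set up the eye field and to specify photoreceptors, so this list is not limited to tissue outside the eye. Whether its smaller sum at 40 h came from retina or from other head tissue was not tested. The 8 fat body markers summed to 106 FPKM in 40 h eyes, against 77.6 FPKM in 21 h eyes, with a median log2 ratio of -0.62. Col4a1 alone was called higher, with 57.6 FPKM in 40 h eyes, against 7.70 FPKM in 21 h eyes, and the other 7, of which 6 had a smaller value at 40 h and none was called, summed to 48.5 FPKM in 40 h eyes, against 69.9 FPKM in 21 h eyes. The 5 hemocyte markers summed to 55.2 FPKM in 40 h eyes, against 3.90 FPKM in 21 h eyes. Among these, Pxn gave 53.4 FPKM in 40 h eyes, against 1.92 FPKM in 21 h eyes, while Hml, NimC1 and eater stayed under 1 FPKM. The 4 muscle markers summed to 8.46 FPKM in 40 h eyes, against 4.85 FPKM in 21 h eyes. The 6 bristle cell markers summed to 352 FPKM in 40 h eyes, against 294 FPKM in 21 h eyes, with a median log2 ratio of -0.27. Among them f, which shapes the bristle shaft, was called higher, with 46.9 FPKM in 40 h eyes, against 1.53 FPKM in 21 h eyes. The neural precursor gene ase was called lower, with 0.483 FPKM in 40 h eyes, against 5.42 FPKM in 21 h eyes, and the other 4 were not called. The part of these cells in the members' values was not tested.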

How the data were processed

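Paired-end reads of 6 libraries, 3 per stage, were aligned by the authors with bowtie2 (default settings) to the BDGP6 genome. Cuffdiff, with geometric library scaling and a correction for bias, gave the levels over Ensembl release 93 genes. Tool versions are not given in the sources used here. The authors deposited FPKM pooled over the replicates, 1 value per gene and stage. The table's columns of the authors' own comparison hold a log2 fold change, a test statistic, a p-value and a q-value, and were not used. The table holds no read depth, so no interval or floor is given.

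Members were found by symbol, and all 122 were matched by identifier to Ensembl release 115 on BDGP6 for positions, exons and overlaps. Neither a test nor a p-value was computed. Calls need 1 FPKM or more at either stage and 2-fold on log2(FPKM + 0.1). The calling step was run on simulated data with changes of 4-fold, which checks the code but not calls near 1 FPKM. The alternatives were a fold of 4 or 1.5, a pseudocount of 1 FPKM, no minimum or a minimum of 5 FPKM, leaving out shared loci, centering, rescaling, and leaving out the leading member. The genes named are the top 12 members by FPKM at 40 h and at 21 h, the 8 largest changes each way at 5 FPKM or more, and any member at 0 at one stage and 5 FPKM or more at the other, with list genes and, chosen after their values were seen, other members where a small count needs a name. The members and lists were chosen with earlier results of these data known. Python 3.11.15, numpy 2.4.6, pandas 2.3.3 and matplotlib 3.10.9 were used.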

Additional observations from a re-analysis of the deposited data

How the results depend on the processing

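Fewer or more members were called under some settings. The 8 higher members became 5 when members at a locus shared with another gene were left out (16.7% of 30, against 14.7% of all genes left by the same step), since TwdlE, Cpr73D and Cpr56F lie at shared loci, and 14 with no minimum FPKM (11.5%, against 12.2% of all genes). The 18 lower members became 11 at a fold of 4 (30.6%, against 4.66%), 33 with no minimum (27.0%, against 9.51%) and 7 with a minimum of 5 FPKM (43.8%, against 7.81%). The median log2 ratio of -1.03 became -0.57 with a pseudocount of 1 FPKM, -0.05 with no minimum, 0.15 with a minimum of 5 FPKM, -1.15 without shared loci, -1.01 after centering on the median of all genes and -1.0 without members listed at 0 at a stage, an alternative chosen after seeing the data. The ratio of summed FPKM, 40 h over 21 h, was 0.0901 and became 1.71 without Cpr72Ea, 0.0545 without shared loci and 0.0894 after rescaling both stages to the same sum. The other alternatives moved each count by no more than 1.5 times. Leaving out members with near-identical proteins was not run, because protein sequences were not used here. No paired analysis was possible because each stage has 1 pooled value, and for the same reason no replicate could be left out.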
